A study of Mus musculus with 10 samples.

Results

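The genes described here are 36 genes of antioxidant defence and of the NRF2 response. They were listed by gene symbol, with earlier results of these data known. The array carried 61 probes for them, of which 58 were bright enough to be kept, and 35 of the 36 genes stood among the 15809 genes tested. Ggt1, a gamma-glutamyltransferase that breaks down extracellular glutathione, was the exception, since its probe rose well above background on only 2 arrays of wild type and 3 of knockout. The samples were livers of C57BL/6 mice of 1 year of age, 5 wild-type samples (WT1 to WT5) and 5 from mice lacking TAK1 (KO1 to KO5), each on its own one-colour Agilent array. TAK1 is here the nuclear orphan receptor also called TR4, encoded by Nr2c2, and not the kinase of that name. The title of the study concerns obesity-linked inflammation, fatty liver and insulin resistance. No drug or diet is given in the sample labels, and neither the sex of the mice nor the deleted part of the gene is stated. Nor do the labels say whether different arrays came from different mice. The p-values therefore cover the spread among these arrays, which may in part be technical.

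NRF2, the product of Nfe2l2, is a transcription factor that KEAP1 binds in the cytoplasm and marks for degradation. When reactive compounds modify KEAP1, NRF2 builds up, enters the nucleus, pairs with a small MAF protein and binds antioxidant response elements, while BACH1 competes for the same elements. The genes it drives in liver make and recycle glutathione, feed the thioredoxin and peroxiredoxin cycle, and reduce quinones, haem products and epoxides. Superoxide dismutases act upstream of these cycles by turning superoxide into hydrogen peroxide, which peroxidases and peroxiredoxins then remove.

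Since NRF2 binds antioxidant response elements, the RefSeq promoter windows (GRCm38.p6, 250 bases before to 50 after each annotated start) were searched for their core. The core TGACNNNGC, which reads GCNNNGTCA on the other strand, was sought on both strands. Windows were found for 30 of the 36 genes, and Gclc, Gsr, Hmox1, Msra, Prdx6 and Sod3 had none. A core lay in at least 1 window of 10 of the 30 genes (33.3%), against 14.0% of 27025 genes in the table, and in 12 of their 46 windows (26.1%), against 12.4% of 32851 windows. The 10 genes were Nfe2l2, Mafg, Maff, Gclm, Ggt1, Mgst1, Prdx1, Srxn1, Txnrd1 and Sod1. A match is a description of the letters and not evidence of binding. The windows are short, so the lack of a match does not show that a gene has no such element elsewhere. The stretches shown are those of 6 of the genes whose core lies before the start, with the core in capitals, to set genes with unlike differences in the knockout side by side. Each is written 5′ to 3′ in the direction of its gene, with coordinates of GRCm38.p6.
Nfe2l2, chr2:75704865-75704913, minus strand, core at -240 to -232: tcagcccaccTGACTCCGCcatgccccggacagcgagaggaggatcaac
Mafg, chr11:120633731-120633797, minus strand, core at -222 to -214: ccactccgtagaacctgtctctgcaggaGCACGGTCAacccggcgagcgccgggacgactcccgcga
Mgst1, chr6:138140441-138140509, plus strand, core at -56 to -48: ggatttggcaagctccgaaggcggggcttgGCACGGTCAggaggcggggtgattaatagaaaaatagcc
Gclm, chr3:122245393-122245461, plus strand, core at -134 to -126: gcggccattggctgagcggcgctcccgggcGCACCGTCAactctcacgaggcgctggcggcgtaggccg
Prdx1, chr4:116685436-116685504, plus strand, core at -133 to -125: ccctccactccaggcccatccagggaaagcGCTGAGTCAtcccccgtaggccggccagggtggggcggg
Sod1, chr16:90220676-90220744, plus strand, core at -56 to -48: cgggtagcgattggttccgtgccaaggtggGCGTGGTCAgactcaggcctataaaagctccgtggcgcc
The cores of Mafg and Mgst1 have the same letters, GCACGGTCA. Of these 6 genes Mafg fell in the knockout (-0.32 on the log2 scale) and the other 5 did not pass the test, with differences from -0.45 for Nfe2l2 to 0.07 for Gclm.

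The arrays differed in ways that bear on what follows. Wild-type samples WT1 to WT4 shared slide 1, WT5 shared slide 2 with KO1, KO2 and KO3, and KO4 and KO5 lay on slides of their own, so only slide 2 held both groups. The slide of KO4 was scanned on another day than the rest. Across genes, wild-type arrays correlated with each other at 0.988 to 0.994 and knockout arrays at 0.965 to 0.988. Of the 2 kept probes named Nr2c2 neither was lower in the knockout (0.44 ± 0.11, limma adjusted p = 0.043, and 0.36 ± 0.13, adjusted p = 0.144). A cDNA probe that the files place between them on chromosome 6 at 92237812 (mm7) was above background on 5 wild-type arrays and 0 knockout arrays, at least 5.41-fold lower (limma adjusted p = 0.00021). In what follows a level is the log2 signal of a gene's brightest probe relative to the 75th percentile of its array, and a difference is knockout minus wild type on the log2 scale with the standard error of the limma fit (n = 5 per group). A gene is said to have risen or fallen if its Benjamini-Hochberg adjusted p over all 15809 genes is under 0.05. A level of one gene is not comparable with that of another, since each comes from its own probe.

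In the knockout 3 of the 35 tested genes fell and 0 rose. Those that fell were Mafg, a small MAF partner of NRF2, Mgst3, a microsomal glutathione transferase, and Msra, which repairs oxidised methionine. The share that fell was 8.57%, against 3.48% of all tested genes that were lower and 2.44% that were higher (5.91% in either direction). At an unadjusted p under 0.05 stood 12 of the 35 (34.3%), 11 lower and 1 higher (Prdx4), against 23.7% of all genes. Negative differences were found for 29 of 35 (82.9%), against 48.1% of all tested genes, and the median difference was -0.13 against 0.01. With unscaled arrays the median of all genes moved to 0.12 and that of the 35 to -0.02, with 20 of 35 negative. Leaving out the scaling shifts all genes by the same amount. With that shift 7 small negative differences (Bach1, Txn2, Txnrd1, Prdx2, Prdx5, Sod1 and Sod2) turned positive, which they did not under normexp or quantile normalisation. Another 6 changed sign under normexp background correction (Gclm, Gss and Glrx2) or quantile normalisation (Keap1, Prdx1 and Sod3). None of these 13 passed the test.

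Each of the 3 calls depended on single arrays. That of Mafg ended without WT2, WT3, WT4, WT5 or KO5 (adjusted p up to 0.078), that of Msra without WT1, WT2, WT4, WT5 or KO4 (up to 0.087), and that of Mgst3 without any array except KO3 (up to 0.115). The number that fell was 0 without WT2, WT4 or WT5, 1 without WT1, WT3, KO4 or KO5, 3 without KO1 or KO3 and 5 without KO2. With slide as a fixed block, or within slide 2 alone, limma called 0 of the 35 (3 and 0 at an unadjusted p under 0.05), and over all genes it called 35 and 2. Within slide 2 the differences were -0.32 for Mafg, -0.51 for Msra and -0.30 for Mgst3, with WT5 as the only wild-type array.

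**Figure D1:**
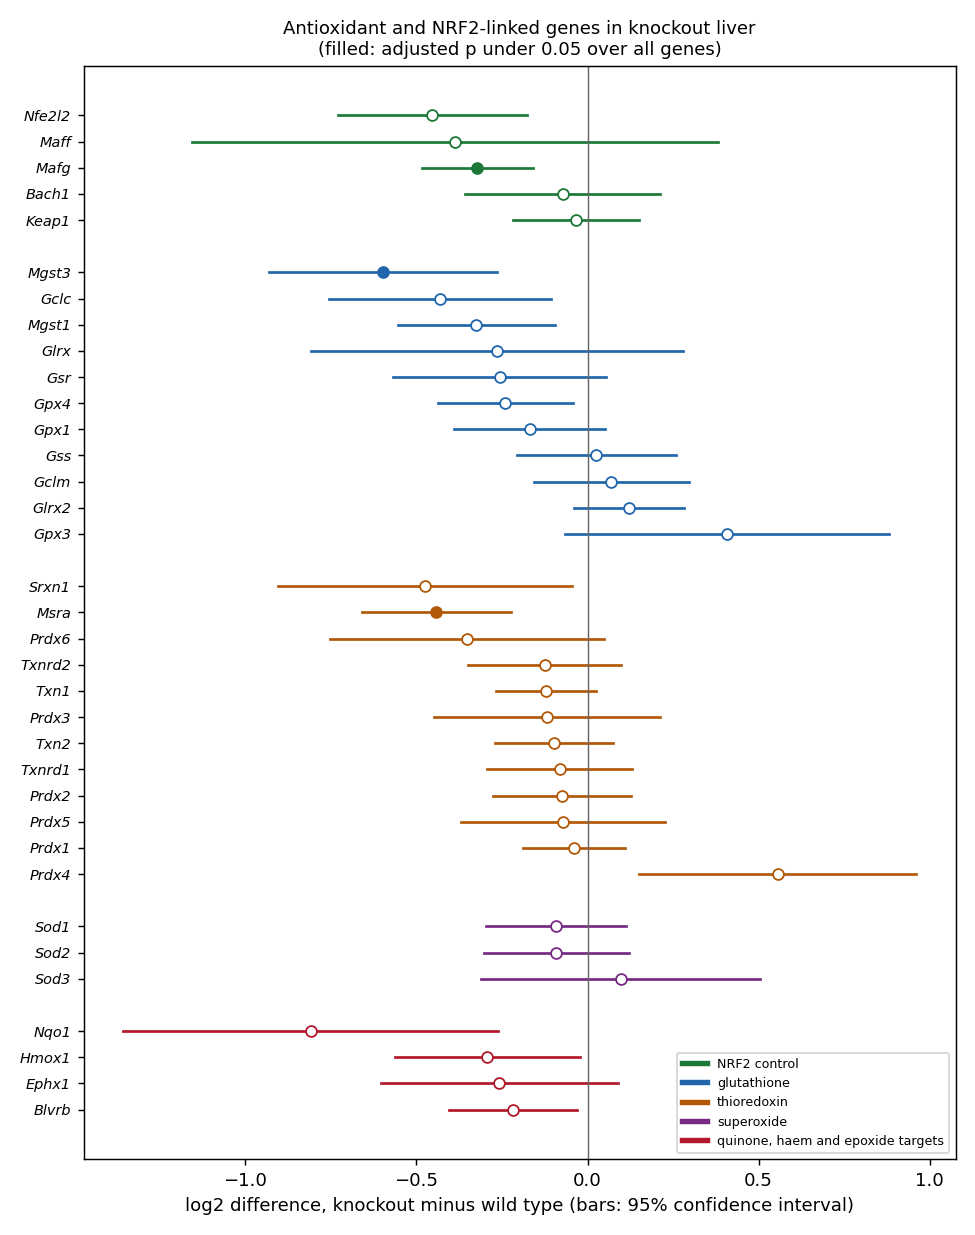
Log2 difference of the 35 tested genes, knockout minus wild type, by role, with 95% confidence intervals of the limma fit (5 arrays per group) and filled points for adjusted p under 0.05 over all genes. Mafg, Mgst3 and Msra are filled, 29 of the 35 points lie below 0, and Prdx4 is the only gene whose interval lies wholly above 0.

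Among the 5 genes that control NRF2, all 5 had negative differences, of which that of Keap1 changed sign under quantile normalisation and that of Bach1 with no scaling. Without KO1 both were positive as well (0.01 and 0.03). The median was -0.32 and 1 of the 5 fell. Nfe2l2 encodes NRF2 itself, and its probe lies at chr2:75519430-75519489 (mm7). Its levels were 4.27, 4.46, 4.17, 4.25 and 4.24 on WT1 to WT5 and 4.14, 3.42, 3.91, 3.85 and 3.78 on KO1 to KO5. Every knockout array lay below every wild-type array, KO1 just under WT3 and KO2 far lower than the rest. The difference of -0.45 ± 0.12 missed the threshold in limma (adjusted p = 0.061), while the exact permutation p was 0.0079, the smallest that 5 against 5 arrays can give. Its 95% interval was -0.73 to -0.18. The difference within slide 2 was -0.41, and Nfe2l2 passed without KO1 (adjusted p = 0.028), with slide as a random block (0.032), with a trended, robust variance (0.045) and with the mean of its probes (0.027). It did not pass under the other settings run, such as normexp (0.171), no scaling (0.288) or slide as a fixed block (0.672), nor without any array other than KO1 (up to 0.151).

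Mafg, a small MAF protein that has no activation domain of its own and binds DNA as the partner of NRF2 or BACH1, (probe at chr11:120738072-120738131, mm7) had levels of 2.79, 2.85, 3.0, 3.06 and 2.89 in wild type and 2.56, 2.52, 2.62, 2.72 and 2.54 in knockout. The groups did not overlap, and KO4 was the highest knockout array, still below WT1. Mafg fell 1.25-fold (-0.32 ± 0.07, limma adjusted p = 0.032, exact permutation p = 0.0079), from 2.92 ± 0.11 to 2.59 ± 0.08 (SD, n = 5). Keap1, the adaptor that holds NRF2 back, gave 3.78, 3.88, 3.67, 3.58 and 3.77 against 3.53, 3.84, 3.67, 3.78 and 3.71. These ranges overlapped almost wholly, and the difference of -0.03 ± 0.08 (adjusted p = 0.836) had an interval of -0.22 to 0.15.

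Bach1, the haem-sensitive repressor at NRF2 sites, read -0.03, 0.22, 0.26, 0.48 and 0.36 in wild type and -0.22, 0.27, 0.30, 0.28 and 0.29 in knockout. The 4 knockout arrays other than KO1 lay within a few hundredths of each other and inside the wild-type range, and the difference was -0.07 ± 0.13 (adjusted p = 0.774). Maff, another small MAF gene, was the most variable of this group, at -1.49, -0.87, -0.26, 0.00 and -0.41 against -1.14, -0.91, -0.93, -0.12 and -1.87. Both groups spanned more than 1 log2 unit, and a difference was not detectable at that spread (-0.39 ± 0.35, adjusted p = 0.535, interval -1.16 to 0.38).

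**Figure D2:**
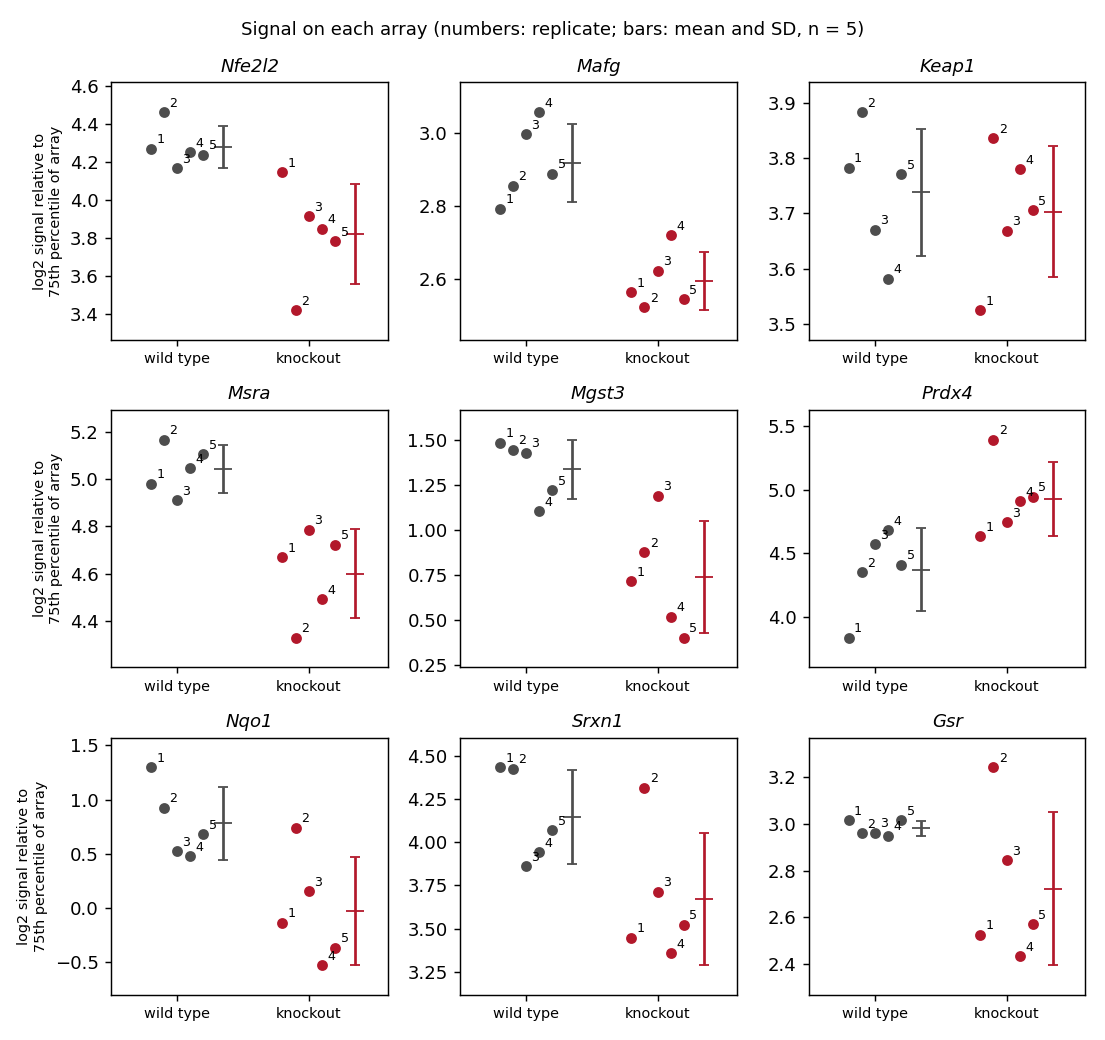
Level of 9 genes on each array, as log2 signal relative to the array's 75th percentile on the vertical axis, with the replicate number beside each point and the mean and SD of each group (n = 5). Nfe2l2, Mafg and Msra separate the groups, while in Nqo1, Srxn1 and Gsr the array KO2 lies among or above the wild-type arrays and the other 4 knockout arrays lie below them.

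The glutathione genes had 1 faller and 0 risers among 11 tested, with 7 negative differences and a median of -0.24. Mgst3, which transfers glutathione to lipid hydroperoxides and leukotrienes at membranes, showed 1.49, 1.45, 1.43, 1.11 and 1.22 in wild type and 0.71, 0.88, 1.19, 0.52 and 0.40 in knockout. Only KO3 reached into the wild-type range, where it lay above WT4. Mgst3 fell 1.51-fold (-0.60 ± 0.15, limma adjusted p = 0.0455, exact permutation p = 0.016), from 1.34 ± 0.17 to 0.74 ± 0.31 (SD, n = 5). For its relative Mgst1, the abundant microsomal transferase, the levels were 8.53, 8.38, 8.18, 8.49 and 8.5 against 8.13, 7.84, 8.09, 8.06 and 8.33. WT3 was the wild-type array that overlapped with the knockout, by way of KO5. The difference of -0.33 ± 0.10 did not pass (adjusted p = 0.095, interval -0.55 to -0.10).

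Glutathione is made in 2 steps. Gclc, the catalytic subunit of glutamate-cysteine ligase, which sets the pace of synthesis, gave 5.72, 5.47, 5.35, 5.44 and 5.22 in wild type and 4.95, 5.21, 5.27, 5.07 and 4.54 in knockout. WT5 lay below KO3, KO5 was the lowest of all, and the difference of -0.43 ± 0.15 did not pass (adjusted p = 0.113). Within slide 2, whose WT5 was the lowest wild-type array, it was -0.08. The modifier subunit Gclm (0.07 ± 0.10, interval -0.16 to 0.30) and glutathione synthetase Gss (0.03 ± 0.10, interval -0.21 to 0.26) had small differences, neither past the test, that turned negative under normexp background correction.

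Gsr, glutathione reductase, returns oxidised glutathione to its reduced form with NADPH. It is given in full because of its pattern, seen in these values. Its wild-type levels of 3.02, 2.96, 2.96, 2.95 and 3.02 were nearly equal, whereas the knockout arrays spread over 2.53, 3.24, 2.84, 2.43 and 2.57. KO2 was the highest of all 10 arrays and the other 4 knockout arrays were below every wild-type array, so the difference was -0.26 ± 0.14 (adjusted p = 0.297). Among the peroxidases, which use glutathione to reduce peroxides, Gpx4, the enzyme for lipid hydroperoxides in membranes, measured 6.10, 6.14, 5.92, 5.82 and 6.14 against 5.67, 5.89, 5.91, 5.74 and 5.69. The upper knockout arrays KO2 and KO3 overlapped with WT4, and -0.24 ± 0.09 did not pass (adjusted p = 0.140).

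Gpx1, the main cytosolic peroxidase of liver, had 8.14, 8.29, 8.14, 8.23 and 8.38 in wild type and 7.84, 7.89, 8.14, 8.24 and 8.23 in knockout. KO1 and KO2 were clearly below the wild-type arrays, KO3 was level with the lowest of them and KO4 and KO5 were inside their range (-0.17 ± 0.10, adjusted p = 0.333). The secreted Gpx3 differed by 0.41 ± 0.21 (adjusted p = 0.276), with KO2 the highest array. The glutaredoxins Glrx and Glrx2, which use glutathione to reduce protein disulfides, differed by -0.26 ± 0.24 and 0.12 ± 0.07 (adjusted p = 0.553 and 0.339), and a single array, KO2, carried most of the former.

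The thioredoxin and peroxiredoxin genes had 1 faller and 0 risers among 12, with a median of -0.11. Differences were negative for 11 of the 12, of which that of Prdx1 turned positive under quantile normalisation and 4 others with no scaling. Other settings changed signs too, such as slide as a fixed block for Txnrd1 (0.02) and the mean of the probes for Prdx2 (0.0014). Msra, methionine sulfoxide reductase, takes its electrons from thioredoxin. Its probe at chr14:58984573-58984632 (mm7) gave 4.98, 5.17, 4.91, 5.05 and 5.11 on the wild-type arrays and 4.67, 4.33, 4.79, 4.49 and 4.72 on the knockout arrays, with no overlap and KO2 lowest. Msra fell 1.36-fold (-0.44 ± 0.10, limma adjusted p = 0.031, exact permutation p = 0.0079), from 5.04 ± 0.10 to 4.60 ± 0.19 (SD, n = 5).

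Srxn1, sulfiredoxin, which restores over-oxidised peroxiredoxins and is a widely used readout of NRF2, read 4.43, 4.43, 3.86, 3.94 and 4.07 against 3.45, 4.31, 3.71, 3.36 and 3.52. KO2 lay in the upper part of the wild-type range and the other 4 knockout arrays were lower than any wild-type array. The difference of -0.48 ± 0.19 did not pass (adjusted p = 0.175). Prdx6, a peroxiredoxin that uses glutathione, had 6.74, 6.86, 6.72, 6.88 and 6.78 in wild type and 6.56, 5.69, 6.66, 6.68 and 6.63 in knockout. All knockout arrays were lower, 4 of them slightly and KO2 by more than 1 log2 unit, which left -0.35 ± 0.18 with an adjusted p of 0.265.

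Prdx4, the peroxiredoxin of the endoplasmic reticulum, had the largest positive difference of the 35. Its levels were 3.83, 4.35, 4.57, 4.68 and 4.41 in wild type and 4.63, 5.40, 4.74, 4.91 and 4.95 in knockout. KO1 overlapped with WT4, WT1 was the lowest array and KO2 the highest. The difference was 0.56 ± 0.18 (adjusted p = 0.103, exact permutation p = 0.016), with an interval of 0.15 to 0.96 and 0.51 within slide 2.

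The core of the cycle had no called difference. Thioredoxins Txn1 (cytosolic) and Txn2 (mitochondrial) differed by -0.12 ± 0.07 and -0.10 ± 0.08, with intervals of -0.27 to 0.02 and -0.27 to 0.07. Thioredoxin reductases Txnrd1 and Txnrd2 gave -0.08 ± 0.10 and -0.13 ± 0.10. The peroxiredoxins Prdx1, Prdx2, Prdx3 and Prdx5 differed by -0.04 ± 0.07, -0.08 ± 0.09, -0.12 ± 0.15 and -0.07 ± 0.13. None of these 8 passed the test (adjusted p from 0.290 for Txn1 to 0.786 for Prdx5), and the interval of Txn1, the narrowest of the 8, reached down to -0.27. Those of Prdx3, Prdx5 and Txnrd2 were -0.45 to 0.21, -0.37 to 0.23 and -0.35 to 0.10, so decreases as large as that of Mafg (-0.32) remained possible.

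Superoxide dismutases showed no called change on their brightest probes, 0 of 3, in limma (0 at an unadjusted p under 0.05). Sod1, the cytosolic copper-zinc enzyme, had 8.52, 8.45, 8.26, 8.32 and 8.49 in wild type and 8.11, 8.20, 8.35, 8.44 and 8.47 in knockout. KO1 and KO2 were the lowest arrays and the other knockout arrays lay within the wild-type range (-0.09 ± 0.09, interval -0.30 to 0.11). The dimmer Sod1 probes gave -0.19 ± 0.08 and -0.19 ± 0.10. Their unadjusted limma p was 0.035 and 0.081, and neither passed over all probes (adjusted p = 0.184 and 0.280). Sod2, the mitochondrial manganese enzyme, gave 6.81, 6.97, 6.84, 6.91 and 6.97 against 6.8, 6.49, 6.92, 6.98 and 6.87. KO2 was well below the wild-type arrays, KO1 just below them, KO3 and KO5 inside their range and KO4 level with the highest of them (-0.09 ± 0.10, interval -0.30 to 0.12). Sod3, the extracellular enzyme, was dim at -3.57, -4.32, -4.49, -4.35 and -4.29 against -4.22, -3.83, -4.25, -3.86 and -4.38, and was well above background on 4 arrays of each group, so that 0.10 ± 0.18 (interval -0.31 to 0.50) is the least precise of the 3.

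The 4 NRF2 targets that handle quinones, haem products and epoxides all had negative differences, also under normexp, quantile and no scaling, with a median of -0.28 and 0 called by limma (3 at an unadjusted p under 0.05). Nqo1, the quinone reductase most often used to read NRF2 activity, had the largest difference of all 35 genes. Its levels were 1.30, 0.93, 0.53, 0.48 and 0.68 in wild type and -0.14, 0.74, 0.15, -0.53 and -0.37 in knockout. KO2 fell within the wild-type range and the other 4 knockout arrays were below all wild-type arrays. The difference of -0.81 ± 0.25 had an adjusted p of 0.085, an interval of -1.36 to -0.26 and a value of -0.43 within slide 2.

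Hmox1, haem oxygenase, which opens the haem ring, showed 2.09, 2.16, 1.64, 2.04 and 1.83 against 1.39, 1.73, 1.76, 1.83 and 1.58. WT3 lay among the knockout arrays and -0.29 ± 0.12 did not pass (adjusted p = 0.181). Blvrb, a reductase of biliverdin and flavins, gave 4.81, 4.82, 4.88, 4.93 and 5.0 in wild type and 4.63, 4.79, 4.87, 4.54 and 4.53 in knockout. KO3 overlapped with WT1 and WT2, and the difference was -0.22 ± 0.08 (adjusted p = 0.157). Ephx1, the microsomal epoxide hydrolase, differed by -0.26 ± 0.16 (adjusted p = 0.346), and KO2 was again its lowest array.

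**Figure D3:**
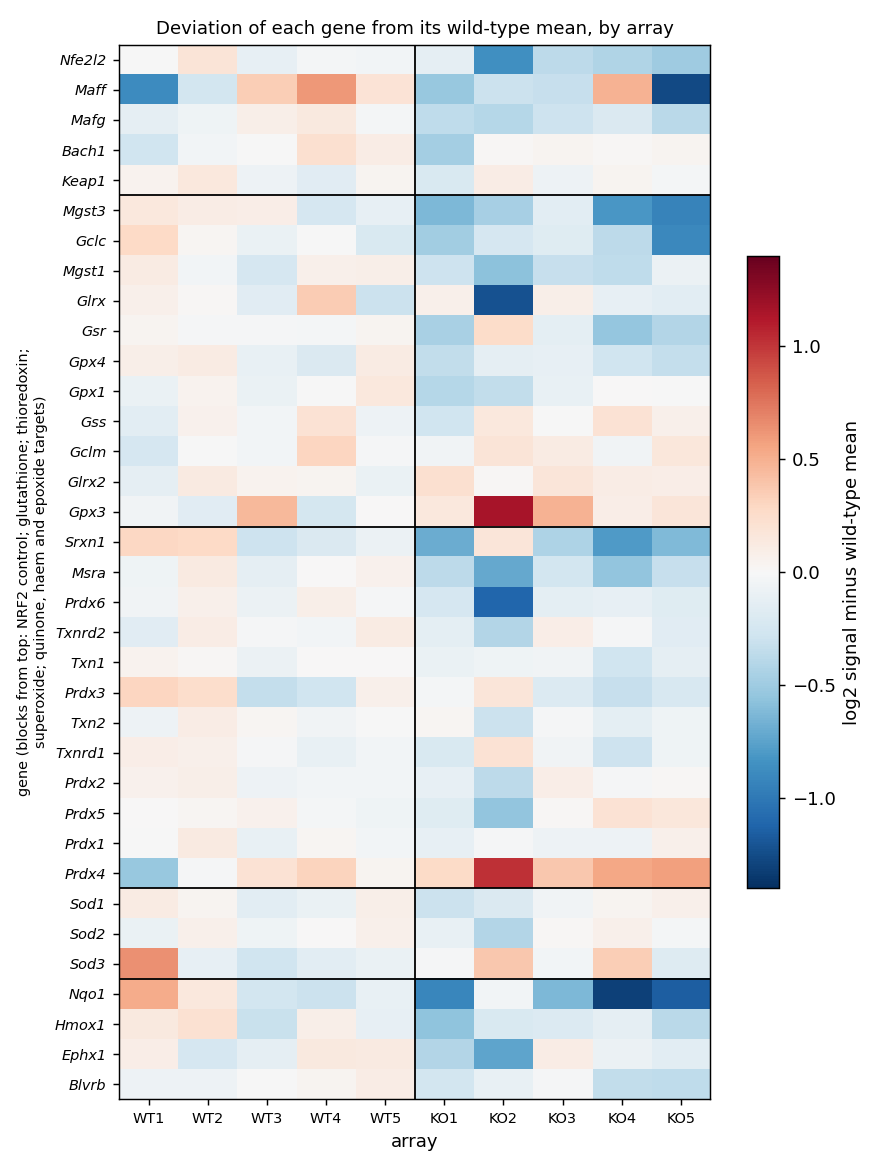
Log2 signal of each gene minus its wild-type mean, one column per array and one row per gene, in blocks by role. Most knockout cells are blue (lower), KO2 holds the deepest values of both signs in several rows, such as Prdx6 and Prdx4, and the superoxide block is pale on nearly all arrays.

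One array, KO2, carried much of the spread in the knockout. It was the lowest knockout array for 13 of the 35 genes and the highest for 10. KO3 was lowest for 0 but highest for 11, and KO1 lowest for 10 and highest for 3. Among the genes for which KO2 was highest were Nqo1, Srxn1, Gsr, Txnrd1 and Gclm. Among those for which it was lowest were Nfe2l2, Prdx6, Msra, Glrx and Ephx1. For Nqo1, Srxn1 and Gsr it was the highest knockout array on every kept probe. For Nfe2l2 it was the lowest on 2 of the 4 kept probes, KO3 and KO5 being lowest on 1 each. Over the 35 genes the median SD was 0.12 in wild type and 0.19 in knockout, and the knockout SD was the larger for 26 of 35 (74.3%), against 78.5% of all tested genes.

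Leaving KO2 out changed which genes passed. Without it 5 genes were lower at an adjusted p under 0.05, namely Nqo1 (-1.0, adjusted p = 0.021), Gsr (-0.39, adjusted p = 0.031), Msra (-0.37, adjusted p = 0.031), Srxn1 (-0.64, adjusted p = 0.033) and Mafg (-0.30, adjusted p = 0.044). Calls over all genes also rose without KO2, to 1072 of 15808 (614 lower), from 935 of 15809 (550 lower) with all arrays. Mgst3 moved just past the threshold (-0.63, adjusted p = 0.051) and Nfe2l2 stayed above it (-0.35, adjusted p = 0.055). In the other direction the differences of Glrx and Prdx6 shrank to -0.02 and -0.16, and those of Prdx4 and Gpx3 to 0.44 and 0.22. KO2 stands apart on its measured values and no label gives a reason to leave it out, so these values are given beside those from all 5 arrays and do not replace them.

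**Figure D4:**
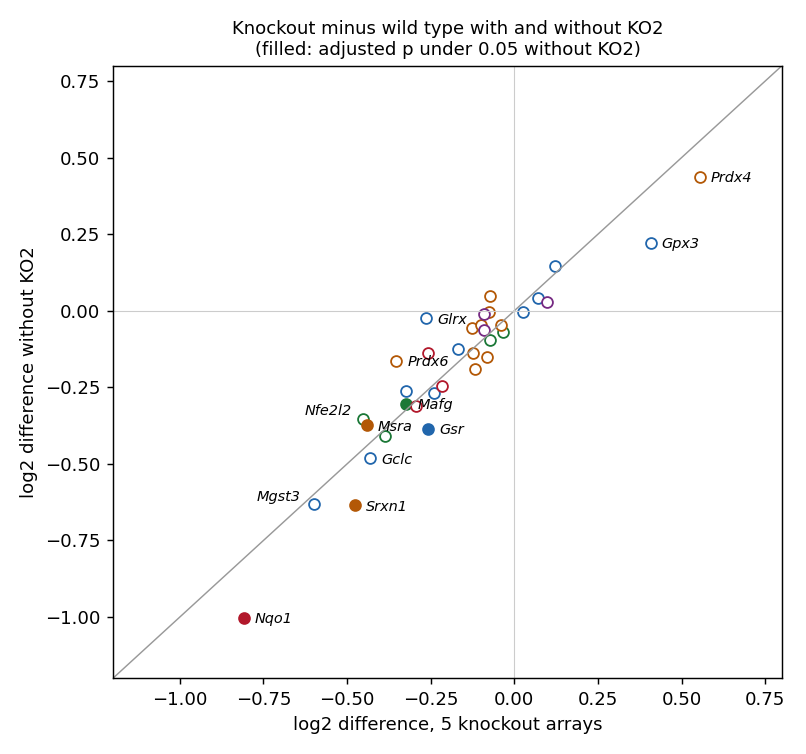
Log2 difference of each of the 35 genes with all 5 knockout arrays (horizontal) and without KO2 (vertical), with the line of equal values and filled points for adjusted p under 0.05 without KO2. Nqo1, Srxn1 and Gsr lie below the line, with larger decreases without KO2, and Glrx and Prdx6 lie above it, with smaller ones.

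For 14 of the genes several probes were kept, and for 12 of the 14 all probes had the same sign. The exceptions were Glrx2 and Prdx2, whose differences were small. Over all 23266 kept probes 5.05% passed at an adjusted p under 0.05, and of the 58 probes of these genes 4 were lower and 1 was higher. The 4 Nfe2l2 probes ran from -0.64 to -0.42, and the dimmest of them passed over all probes (-0.64 ± 0.16, adjusted p = 0.045). Of the 2 Prdx4 probes the dim one was higher in all knockout arrays than in any wild-type array (0.73 ± 0.17, adjusted p = 0.040), and with the mean of both probes Prdx4 passed over genes as the 1 riser (adjusted p = 0.0499), while Mgst3 no longer passed (-0.68, adjusted p = 0.056).

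The second Mafg probe gave -0.36 ± 0.09 (adjusted p = 0.053 over probes) and the second Mgst3 probe -0.75 ± 0.22 (adjusted p = 0.083). The 3 Srxn1 probes lay between -0.48 and -0.42. Probes disagreed most for Gsr. Those at chr8:32465796-32465855 and chr8:32465775-32465834 (mm7), which overlap, gave -0.26 ± 0.14 and -0.65 ± 0.24, and that at chr8:32465210-32465269 gave -0.04 ± 0.10. For Txnrd2 the brightest probe gave -0.13 ± 0.10 and the other 2 gave -0.39 ± 0.15 and -0.36 ± 0.17. The 4 Prdx6 probes ran from -0.70 to -0.29. The dimmest of them (-0.70 ± 0.21, limma adjusted p = 0.083 over probes) was lower in all knockout arrays than in any wild-type array. On that probe KO2, KO3 and KO4 read -2.98, -2.62 and -2.50. KO1 and KO5 read -1.89 and -1.90, just under the lowest wild-type array, WT1, at -1.86. The groups overlapped on the Prdx6 probes at chr1:161211323-161211382 and chr1:161209633-161209692 (mm7). The size of the difference thus depended on the probe for Gsr, Txnrd2 and Prdx6, none of whose probes passed.

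**Figure D5:**
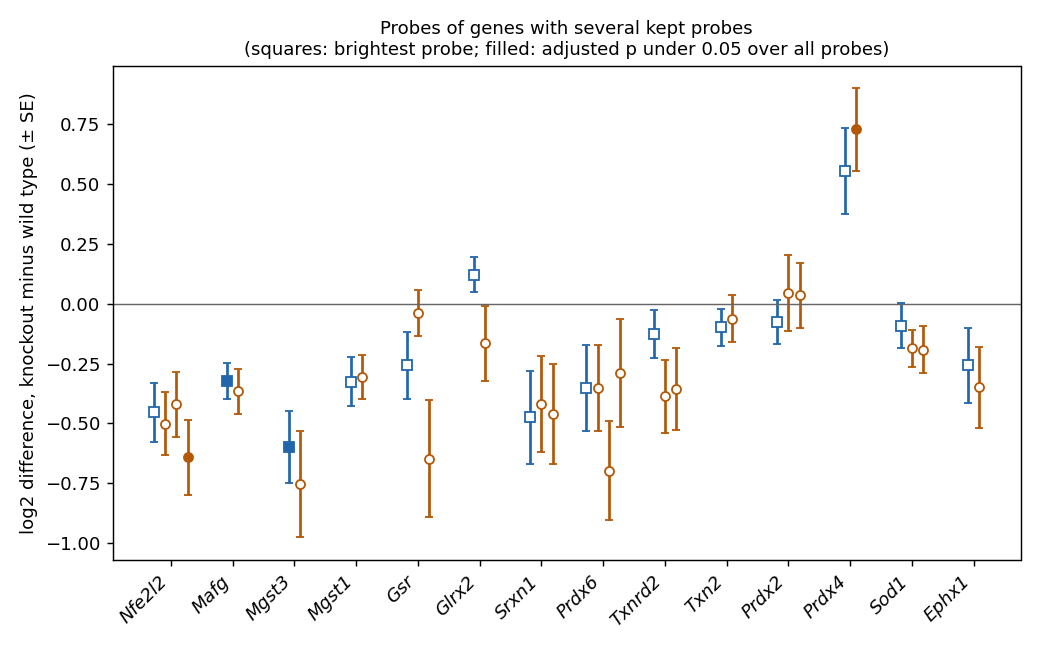
Log2 difference (± SE) of every kept probe of the 14 genes with several kept probes, with squares for the brightest probe and filled symbols for adjusted p under 0.05 over all probes. The 4 Nfe2l2 probes lie together between -0.64 and -0.42, both Prdx4 probes lie above 0, and the 3 Gsr probes spread from -0.65 to -0.04.

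Other genes of the same pathways, listed apart, were measured in the same fit. Of 32 tested partners and further targets of NRF2, 3 fell and 0 rose, with 26 negative differences and a median of -0.24. Aox1, an aldehyde oxidase, had levels of 4.69, 4.84, 4.59, 4.81 and 4.75 in wild type and 4.08, 4.05, 4.34, 4.19 and 4.13 in knockout, with all knockout arrays lower. It fell 1.49-fold (-0.58 ± 0.08, limma adjusted p = 0.0040) and kept the call without each array in turn. Ugdh, which makes UDP-glucuronic acid, also fell (-0.47 ± 0.11, limma adjusted p = 0.039), as did Tkt, a transketolase of the pentose phosphate pathway (-0.48 ± 0.12, adjusted p = 0.046). The call of Ugdh ended without any array except KO1 and KO5 (adjusted p up to 0.105), and that of Tkt without any except WT3 and KO1 (up to 0.119). Catalase, Cat, which splits hydrogen peroxide in peroxisomes, gave 6.77, 6.87, 6.77, 6.93 and 6.95 against 6.72, 5.84, 6.74, 6.59 and 6.56, a difference of -0.37 ± 0.16 (adjusted p = 0.198) with KO2 far below the other arrays.

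Of 44 further thiol, selenium and peroxide genes 1 rose and 5 fell, with 25 negative differences and a median of -0.06. Msrb3, a methionine sulfoxide reductase that acts on the opposite form of the oxidised residue to Msra, had levels of -1.74, -1.88, -1.51, -1.72 and -2.04 in wild type and -1.27, -0.82, -1.05, -0.94 and -1.15 in knockout. All knockout arrays were higher, and Msrb3 rose 1.66-fold (0.73 ± 0.12, limma adjusted p = 0.0087). The difference within slide 2 was 1.00, and the call held without each array in turn. The other reductases of that form, Msrb1 (-0.07 ± 0.08) and Msrb2 (-0.30 ± 0.12), did not pass (adjusted p = 0.646 and 0.168).

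The fallers were 3 glutathione transferases, Gstk1 (-0.54 ± 0.10), Gstt1 (-0.77 ± 0.16) and Gstz1 (-0.44 ± 0.10), and 2 genes of glutathione breakdown, the gamma-glutamyltransferase gene Ggt6 (-0.72 ± 0.15) and the gamma-glutamylcyclotransferase gene Ggct (-0.59 ± 0.14). Their limma adjusted p ran from 0.017 for Gstk1 to 0.037 for Ggct, and on each of the 5 genes every knockout array was below every wild-type array. Of all 44 genes of this list the groups did not overlap for 9 (20.5%), 8 lower and 1 higher, against 9.61% of all tested genes. Some of these, such as Nqo2 and Ephx2, did not pass the test. Removal of WT2 ended the call of Gstk1 (adjusted p = 0.052). Those of Ggt6, Gstt1 and Gstz1 ended without any 1 of the wild-type arrays or KO5, that of Gstz1 also without KO4, and that of Ggct without WT1, WT2, WT3, WT5, KO3, KO4 or KO5 (adjusted p up to 0.096). Txnip, the thioredoxin inhibitor, differed by 0.00 ± 0.12 (interval -0.26 to 0.26). Of 12 genes of the integrated stress response, which shares glutathione and amino acid targets with NRF2, 1 rose, the asparagine synthetase gene Asns (5.23 ± 0.53). Over these lists together 10 of 88 tested genes changed (11.4%), against 5.91% of all genes. Neither Aox1 nor Msrb3 passed with slide as a fixed block or within slide 2.

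Arrays of the 2 groups did not overlap for 4 of the 35 genes (11.4%), all lower (Nfe2l2, Mafg, Msra and Prdx6), against 9.61% of all tested genes in either direction. That share is near the background.

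Markers of other liver cells moved with genotype in part. In bulk tissue fewer cells of a type and less RNA per cell cannot be told apart. Endothelial markers rose for 2 of 12 tested in limma (16.7%), against 2.44% of all tested genes. Of the 12, 11 had positive differences and 8 (66.7%) stood at an unadjusted p under 0.05, against 23.7% of all genes. Their summed level (in units of the array's 75th percentile) was 31.2 to 42.4 in wild type and 46.9 to 70.8 in knockout. Kupffer cell and macrophage markers rose for 1 of 13 in limma (2 at an unadjusted p under 0.05), at 71.0 to 147 against 64.7 to 161. Hepatocyte markers changed for 0 of 11 in limma (2 at an unadjusted p under 0.05), at 1795 to 2096 against 1588 to 2151. Of 7 adipocyte markers Adipoq, Retn, Lep and Plin1 were not bright enough to be tested. Of the other 3 (Cfd, Plin4 and Car3) 2 fell, at 210.5 to 303.8 against 37.45 to 192.8. With the former untested, this sum is not a measure of adipocyte content. Erythroid markers, relevant because red cells are rich in Prdx2, Blvrb and Gpx1, changed for 0 of 5 (2 at an unadjusted p under 0.05), at 57.2 to 79.5 against 35.6 to 68.5. Limma called 0 of 12 stellate cell, 0 of 6 cholangiocyte, 0 of 2 neutrophil and 0 of 9 lymphocyte markers (4, 0, 0 and 0 at an unadjusted p under 0.05). The part of these markers in the differences above was not tested.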

How the data were processed

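Each of 5 wild-type and 5 knockout liver RNA samples had its own Agilent array, with Cy3 as the dye. The authors' deposited scanner files hold processed intensity values that Agilent Feature Extraction (version 9.5 in the submitters' processing notes) had background-subtracted and detrended within each array, per the file headers, with no normalisation between arrays. These intensity values recur in the deposited series table, where they are linear, uncentred and identical on all 10 arrays (column medians 80.0 to 107.6). Probe coordinates are mm7, per the file headers.

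Here intensities were put on the log2 scale without a pseudocount and scaled by the 75th percentile of each array (950.3 to 1344). Outlier spots were set to missing and replicate spots averaged. Kept were the 23266 of 41174 probes that exceeded background clearly in 4 or 5 arrays of either group (51.0% to 62.4% of probes did so on each array). Probes were matched to genes by RefSeq accession first (22951 probes), then by current (6659) or older symbol (3109). The rest kept the name they had on the array (8455). Each gene took its brightest kept probe. The test was that of limma (version 3.58.1, lmFit then eBayes, R 4.3.3) on genotype alone, with Benjamini-Hochberg adjustment over all 15809 genes. The fit was tested on simulated data. Single genes also had a two-sided exact permutation test, and the number of arrays limits the precision. The files held 0 columns of other samples.

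Replicate numbers recur in both groups, but deviations of same-numbered arrays correlated at -0.22 to 0.04, so no pairing was used. The genes, lists and tests were chosen with earlier results of these data known. Values on every array are given for genes that passed, for the 3 others with the smallest p in each group by role, for Nfe2l2, Keap1, Nqo1, Gclc, Hmox1 and Gpx1, and for Gsr, chosen after its values were seen. In the other lists the genes that passed, Cat and Txnip were named, and Mt1, Mt2, Chac1, Osgin1, Msrb1 and Msrb2 after their values were seen. Background correction, scaling, the dim-probe filter, slide, replicate block, the rule for several probes, the variance model, outlier spots and each array were varied.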

Additional observations from a re-analysis of the deposited data

Results flagged for a closer look

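Among the genes named, 12 times 1 array of a group stood further from the other 4 than chance usually allows, by the gap to its nearest neighbour as a share of the range of the group (Dixon's test for 5 values). The 51 genes gave 102 groups, and chance alone gives such a gap in about 5% of groups. The 35 tested antioxidant genes alone gave 5 such cases in 70 groups. Array KO2 accounted for 7 of the 12. Of the 51 genes 4 (Mt1, Mt2, Chac1 and Osgin1) were included after their KO2 values were seen, and Mt1 and Mt2 gave 2 of these 7, so the share is not comparable with the one that chance gives.

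Of the antioxidant genes, Bach1 was low on KO1 (-0.22, others 0.27 to 0.30), Glrx on KO2 (1.41, others 2.49 to 2.72), Prdx6 on KO2 (5.69, others 6.56 to 6.68) and Txn1 on WT3 (5.74, others 5.84 to 5.87), while Sod3 was high on WT1 (-3.57, others -4.49 to -4.29). In the other lists KO2 was low for Gstt1 (1.80, others 2.46 to 2.71), Gstz1 (5.25, others 5.67 to 5.73) and Cat (5.84, others 6.56 to 6.74), KO4 was low for Ggct (1.51, others 1.95 to 2.08) and WT1 was high for Ggt6 (3.75, others 3.67 to 3.69). KO2 was high for the metallothioneins Mt1 (5.21, others 0.35 to 1.00) and Mt2 (7.23, others 1.16 to 1.69).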

How the results depend on the processing

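Of the 35 genes, 3 were lower, with a median of -0.13, and 10 of the 88 other pathway genes and 935 of all genes changed. The 3 became 0 with normexp background correction (median -0.27, other genes 2, all genes 86), 1 with quantile normalisation (median -0.063), 0 without scaling (median -0.017, other genes 2, all genes 470), 0 without the dim-probe filter (other genes 3, all genes 247), 0 with slide as a fixed block (median -0.20, other genes 0, all genes 35) and 0 within slide 2 (median -0.20, other genes 0, all genes 2). The replicate numbers do not pair the arrays, and with the replicate block limma called 0 lower, 2 other genes and 166 of all genes. At an unadjusted p under 0.05 the settings with 0 lower gave 10 (normexp), 4 (no scaling), 11 (no filter), 3 (fixed block), 0 (slide 2) and 9 (replicate block) of the genes. Slide as a random block (correlation -0.09) gave 4 lower, 15 other genes and 1451 of all genes, a trended, robust variance 4, 14 and 1095, and the mean of all probes 3 lower (Nfe2l2, Mafg and Msra, without Mgst3) and 1 higher. Leaving out 1 array at a time gave 0 to 5 lower, 0 to 0 higher, medians of -0.19 to -0.12, 3 to 14 other genes and 297 to 1191 of all genes. The other settings (the series table, outlier spots kept, probes above background on all 10 arrays) kept the 3 calls. The cause of these shifts was not tested. The differences of Mafg, Mgst3 and Msra were negative under every setting run. The settings reuse the same arrays and these 3 genes were named for their main result, so the stable sign is no separate support. Of the 35 genes 22 kept their sign under normexp, quantile and no scaling. Sod3 was near the background, well above it on 4 arrays of each group, which limits its values. Gpx3 was dim too (wild-type mean -2.62) but well above background on 5 arrays of each group.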

Other observations

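Some genes of the other lists had their highest value on array KO2, and are given here because those values were seen. Mt1 and Mt2 encode metallothioneins, cysteine-rich proteins that bind zinc and copper. Mt1 had 1.78, 0.79, -0.06, -0.39 and 0.13 in wild type and 0.35, 5.21, 1.00, 0.64 and 0.77 in knockout, and Mt2 2.66, 1.71, 1.45, 0.52 and 1.11 and 1.26, 7.23, 1.69, 1.16 and 1.58. Neither difference passed in limma (1.14 ± 0.88, adjusted p = 0.466, and 1.09 ± 1.09, adjusted p = 0.584).

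Chac1, which degrades glutathione inside the cell and is induced by the integrated stress response, had -0.76, -0.83, -0.40, -0.85 and -1.07 in wild type and -1.65, 3.72, 0.53, -0.33 and -0.22 in knockout (1.19 ± 0.81, limma adjusted p = 0.406). Osgin1, a gene induced by oxidative stress and by NRF2, had 4.09, 3.86, 3.89, 3.82 and 4.20 and 4.16, 7.04, 5.17, 5.91 and 4.78 (1.44 ± 0.45, limma adjusted p = 0.093). KO2 was the highest knockout array for all 4 of these genes, and also for Nqo1, Srxn1 and Gsr, while it was the lowest for Prdx6 and Glrx.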
